A study of Mus musculus with 8 samples.

Results

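The olfactory receptor genes Olfr164 to Olfr209 are the mouse receptors whose symbol is Olfr followed by a number in that range. They were taken from the deposited table by this symbol alone, with no measured value in the rule. The rule found 34 genes among 1104 numbered Olfr genes and 22553 genes in all, and the other 1070 numbered receptors serve as the comparison.

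Ribosome-protected fragments (footprints, which mark the mRNA that ribosomes were reading) and input RNA were sequenced from cells sorted out of the main olfactory epithelium of mice, to compare animals with and without the RNA-binding protein Mex3a. Cells positive for Ngn1-GFP are immediate neuronal progenitors and immature olfactory sensory neurons, and OMP-GFP positive cells are mature olfactory sensory neurons. The Ngn1-GFP control mice were Mex3a flox/flox or Mex3a flox/+ with the Ngn1-GFP reporter and no Cre driver. The Ngn1-GFP KO mice were Mex3a flox/flox with a Cre driver and Ngn1-GFP. The OMP-GFP control mice were Mex3a flox/flox or Mex3a flox/+ with OMP-ires-GFP and no Cre driver, and the OMP-GFP KO mice were Mex3a flox/flox with a Cre driver and OMP-ires-GFP. All mice carried a floxed Mex3a allele, no group was treated, and Cre was present only in the KO mice. The sources used here do not give the age of the mice.

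The 8 footprint libraries form 4 groups of 2, but the table gives each group 1 footprint column and 1 RNA column. So the values below are single values per group made by the authors, no comparison has a replicate check, and no p-value is given. Brackets hold 95% counting intervals, which cover counting error only, since reads copied by PCR are not independent molecules. Column totals were 3031489 to 4456989 footprints and 26946592 to 89327877 RNA reads over coding sequences. Counts are unscaled, and the Ngn1-GFP control RNA column is the deepest at 89327877 reads, against 31855259 at most in the others, so a higher RNA count there is not by itself a higher level. Where 4 values follow each other, the first pair is control and KO of Ngn1-GFP cells and the second pair is control and KO of OMP-GFP cells. Mex3a itself had 437, 28, 16 and 5 footprints, and was lower in the KO column of both populations. Neurog1, a progenitor transcription factor, had 509, 272, 7 and 3 footprints. Omp, the marker of mature olfactory neurons, had 12596, 8806, 9663 and 14732, so the Ngn1-GFP columns also hold a large Omp signal. The RNA columns were not alike: in that of the Ngn1-GFP control, 377 genes exceeded every other RNA column by 8-fold or more, and they took 4.86% of its reads.

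Olfactory receptors are G protein-coupled receptors that recognise odorants on the cilia of olfactory sensory neurons. Each mature neuron expresses 1 receptor gene, and 1 allele of it, out of a very large family, so in a bulk sample a receptor's reads come from the small share of neurons that chose it. Fewer neurons choosing a receptor and less of its RNA or fewer ribosomes per neuron cannot be told apart in these bulk columns. The genes lie in clusters of related copies, and the coding sequence of a receptor is usually a single exon preceded by short noncoding exons.

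All 34 genes lie on chromosome 16 in the RefSeq annotation of GRCm38.p6, in a proximal and a distal cluster that are 39.1 Mb apart. The proximal cluster, chr16:19285794-19625101, holds 8 genes, Olfr164 to Olfr171, within 339.3 kb. The distal cluster, chr16:58760152-59362240, holds the other 26, Olfr172 to Olfr209, within 602.1 kb. By the family numbers among the RefSeq synonyms, the proximal genes are MOR279 (Olfr164 and Olfr165), MOR273 (Olfr169, Olfr170 and Olfr171) and 3 single genes, Olfr166, Olfr167 and Olfr168, of MOR270, MOR272 and MOR271. The distal genes are 7 of MOR184, 8 of MOR183, 10 of MOR182 and Olfr192, which has no family number there. RefSeq calls Olfr192 and Olfr197 transcribed pseudogenes and the rest protein coding. Coding lengths in the deposited table run from 918 to 1085 bases, so counts of different members differ little through length.

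Reads can be assigned to a receptor only where its sequence differs from that of its relatives. A pair of neighbours from each of 2 families is shown for this, as the 50 bases on each side of the annotated start in GRCm38.p6 (RefSeq), minus strand, 5′ to 3′, with the longest run shared by the pair in capitals. For Olfr164 (chr16:19286692-19286791) and Olfr165 (chr16:19407968-19408067) that run is 38 bases long, and for Olfr169 (chr16:19566832-19566931) and Olfr170 (chr16:19606617-19606716) it is 64.
Olfr164: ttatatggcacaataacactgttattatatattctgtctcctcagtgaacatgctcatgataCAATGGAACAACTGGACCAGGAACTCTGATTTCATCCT
Olfr165: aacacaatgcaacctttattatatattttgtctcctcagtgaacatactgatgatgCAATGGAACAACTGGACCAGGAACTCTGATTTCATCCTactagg
Olfr169: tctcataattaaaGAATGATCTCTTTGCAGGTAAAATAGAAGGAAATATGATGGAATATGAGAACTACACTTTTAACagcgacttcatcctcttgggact
Olfr170: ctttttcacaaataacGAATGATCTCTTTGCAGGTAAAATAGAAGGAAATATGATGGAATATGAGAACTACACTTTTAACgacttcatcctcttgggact
In each of the 4 genes the annotated start is an ATG, so the capitals of both pairs reach into coding sequence. The sources used here do not say how reads that match more than 1 gene were counted, and the split of reads within such pairs is uncertain to that extent.

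The start regions of 3 genes of MOR183 are shown because their RNA differed between KO and control in unlike ways. Olfr183 and Olfr190 had at least 2-fold less RNA in both KO columns. Olfr186 differed by less than 2-fold in both. Each is 300 bases, 5′ to 3′ on the gene's strand, from 250 bases before the annotated start, with the 50 bases from the start onwards in capitals. They are chr16:58995154-58995453 on the plus strand for Olfr183, chr16:59075029-59075328 on the minus strand for Olfr190 and chr16:59027878-59028177 on the minus strand for Olfr186. The capitals begin with ATG only in Olfr190. The RefSeq gene of Olfr183 spans chr16:58929418-59000616, far longer than its coding sequence, and the window shown lies inside it.
Olfr183: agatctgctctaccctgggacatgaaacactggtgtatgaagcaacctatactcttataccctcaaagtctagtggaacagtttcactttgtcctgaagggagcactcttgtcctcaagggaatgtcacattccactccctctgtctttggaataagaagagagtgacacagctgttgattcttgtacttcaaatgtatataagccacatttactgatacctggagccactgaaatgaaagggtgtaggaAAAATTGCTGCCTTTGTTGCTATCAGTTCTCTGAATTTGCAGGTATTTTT
Olfr190: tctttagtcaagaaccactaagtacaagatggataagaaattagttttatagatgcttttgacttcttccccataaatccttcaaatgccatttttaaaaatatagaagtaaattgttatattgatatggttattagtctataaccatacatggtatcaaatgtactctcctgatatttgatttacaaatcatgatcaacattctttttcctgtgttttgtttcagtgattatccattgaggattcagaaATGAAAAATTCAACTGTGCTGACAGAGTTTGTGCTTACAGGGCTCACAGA
Olfr186: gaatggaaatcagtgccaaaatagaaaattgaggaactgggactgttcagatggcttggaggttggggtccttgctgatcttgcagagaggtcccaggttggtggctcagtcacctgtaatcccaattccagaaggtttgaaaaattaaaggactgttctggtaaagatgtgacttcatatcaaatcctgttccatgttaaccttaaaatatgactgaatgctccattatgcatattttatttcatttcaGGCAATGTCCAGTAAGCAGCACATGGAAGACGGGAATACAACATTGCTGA
Windows of this length were held for 25 of the 34 genes, and in 16 of them the annotated start is an ATG, so the window then covers sequence upstream of the coding start and not a mapped promoter. The letters TAATTG, a homeodomain core, stood on either strand in 3 of the 25 windows (Olfr181, Olfr206 and Olfr209), against 23.2% of 944 windows of numbered Olfr genes and 8.0% of 32851 windows of all genes. TAATTA stood in 4 (Olfr169, Olfr172, Olfr196 and Olfr198), against 18.6% and 5.29%. CCCNNGGG, the core of sites for the Ebf factors, stood in 0 of the 25, against 3.07% and 13.7%. None of the 3 sets of letters was in the windows of Olfr183, Olfr190 and Olfr186, which says only that these letters are not there.

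The 34 receptors together held 1084, 761, 1106 and 1090 footprints. That was 2.92% [2.75, 3.10], 2.78% [2.59, 2.98], 3.21% [3.03, 3.41] and 2.80% [2.64, 2.97] of all numbered receptor footprints (exact Clopper-Pearson intervals). The footprint shares of KO and control overlapped in the Ngn1-GFP cells, and the KO share was the lower one in OMP-GFP cells. Without Olfr183 the OMP-GFP shares were 2.99% [2.82, 3.18] in the control and 2.79% [2.63, 2.96] in the KO, and overlapped as well. Their RNA came to 11672, 2437, 3656 and 3150 reads, or 3.02% [2.97, 3.07], 2.19% [2.11, 2.28], 2.50% [2.42, 2.58] and 2.36% [2.28, 2.44] of receptor RNA. The share of RNA in the Ngn1-GFP control column was above that of each other column, the same column in which the 377 genes stood apart; the part of that column in the difference was not tested.

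Footprints were found on nearly every member. Members with at least 1 footprint numbered 32, 31, 33 and 31 of 34, or 94.1%, 91.2%, 97.1% and 91.2%, against 92.0%, 81.2%, 91.0% and 80.7% of the other receptors. At the depth of the smallest column, 3031489 footprints, the expected numbers were 31.6, 31, 33.0 and 30.6, so depth changed them little. At least 10 footprints were counted for 25, 23, 26 and 25 members. The pseudogene Olfr197 had 0 footprints in 3 columns and 2 in the OMP-GFP KO, with 55, 11, 13 and 0 RNA reads. The other genes at 0 were Olfr194 in the Ngn1-GFP control, Olfr193 and Olfr203 in the Ngn1-GFP KO, and Olfr170, Olfr192 and Olfr196 in the OMP-GFP KO. A count of 0 allows up to 3 footprints, worth 0.673 to 0.990 CPM (counts scaled to a common column total) in these columns.

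The proximal cluster opens with the MOR279 pair. Olfr164 had 132, 138, 134 and 184 footprints and 353, 176, 174 and 348 RNA reads. It was the member with most footprints in every column, with 12.2%, 18.1%, 12.1% and 16.9% of the members' footprints. Per kilobase of coding sequence its footprint level was 31.2, 48.0, 39.5 and 47.3 RPKM (reads per kilobase of coding sequence, scaled to depth), which placed it 31st, 18th, 31st and 25th of the 1104 receptors. Its RNA level of 5.32, 9.64, 8.29 and 19.3 TPM (the matching measure of RNA, scaled to a fixed total) placed it only 392nd, 170th, 280th and 58th. Olfr165 had 53, 13, 50 and 63 footprints and 88, 40, 64 and 33 RNA reads, and was low in footprints in the Ngn1-GFP KO column alone.

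The next 3 proximal genes each stand alone in their family here. Olfr166 had 28, 39, 59 and 41 footprints on 1382, 191, 378 and 242 RNA reads, and was the member with the highest RNA level in both controls, at 21.0 and 18.2 TPM. Olfr167 had 56, 21, 27 and 9 footprints on 450, 248, 231 and 255 RNA reads. Olfr168 had 42, 30, 25 and 15 footprints on 1052, 77, 75 and 112 RNA reads, with the Ngn1-GFP control far above the other 3 columns in RNA only. For each of these genes the highest RNA level per kilobase and the highest footprint level per kilobase lay in different groups. In MOR273, Olfr169 had 59, 54, 58 and 31 footprints and 747, 137, 266 and 118 RNA reads. Olfr170 had 28, 9, 22 and 0 footprints and 476, 129, 165 and 75 RNA reads. Olfr171 had 13, 33, 10 and 3 footprints and 453, 61, 127 and 70 RNA reads. All 3 genes of MOR273 had their lowest footprint count in the OMP-GFP KO column.

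In MOR184, at the start of the distal cluster, Olfr172 had 6, 24, 6 and 1 footprints and 163, 49, 14 and 1 RNA reads. Olfr173 had 25, 43, 61 and 55 footprints and 385, 100, 158 and 157 RNA reads. Olfr181 had 6, 26, 11 and 10 footprints and 194, 42, 67 and 78 RNA reads. Olfr172 and Olfr181 had more footprints in the Ngn1-GFP KO column than in each other column. Olfr177 had 30, 29, 30 and 36 footprints, nearly the same count in each column, on 275, 63, 127 and 113 RNA reads. Olfr178 had 20, 5, 19 and 11 footprints on 243, 44, 22 and 86 RNA reads, and Olfr180 had 25, 14, 42 and 27 on 386, 58, 86 and 70. Olfr195, which lies apart from the rest of the family among the MOR182 and MOR183 genes, had 54, 15, 34 and 63 footprints on 266, 71, 100 and 85 RNA reads.

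MOR183 held the member with the largest KO difference. Olfr183 had 93, 22, 76 and 3 footprints and 541, 12, 203 and 9 RNA reads, and both KO columns were below both control columns in footprints and in RNA. Olfr190 had 75, 14, 42 and 26 footprints and 315, 22, 88 and 30 RNA reads, with the same order of KO and control columns. Olfr191 had 27, 7, 37 and 33 footprints and 226, 29, 60 and 30 RNA reads, and its OMP-GFP KO footprints were above those of the Ngn1-GFP control. Olfr186 had 46, 39, 82 and 121 footprints on only 132, 67, 76 and 57 RNA reads. Its footprint level of 11.1, 13.8, 24.7 and 31.7 RPKM ranked 253rd, 214th, 92nd and 71st among the receptors while its RNA level of 2.03, 3.74, 3.69 and 3.22 TPM ranked 841st, 546th, 629th and 678th. Olfr187 had 12, 4, 23 and 38 footprints on 47, 18, 11 and 60 RNA reads, and Olfr193 had 14, 0, 21 and 11 on 109, 18, 21 and 14. Olfr196 was low throughout, with 6, 3, 3 and 0 footprints and 20, 5, 0 and 7 RNA reads.

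In MOR182, the most distal family, Olfr206 led with 79, 38, 89 and 111 footprints on 332, 106, 171 and 161 RNA reads. Olfr209 had 21, 15, 38 and 52 footprints on 303, 103, 256 and 210 RNA reads, with both OMP-GFP columns above both Ngn1-GFP columns in footprints. Olfr198 had 3, 13, 32 and 41 footprints on 80, 8, 14 and 22 RNA reads, in the same order. Olfr202 went the other way, with 43, 41, 18 and 12 footprints on 272, 111, 143 and 190 RNA reads. Olfr201 had 24, 24, 14 and 14 on 314, 62, 104 and 78, and Olfr205 had 25, 18, 13 and 15 on 366, 85, 94 and 92. Olfr199 had 27, 2, 8 and 4 footprints on 308, 47, 90 and 80 RNA reads, with its highest count in the Ngn1-GFP control. Olfr194 had 0, 3, 6 and 27 footprints on 166, 33, 41 and 24 RNA reads, and so held the most footprints in the column where its RNA count was lowest. Olfr204 had 6, 9, 9 and 20 footprints on 579, 111, 163 and 212 RNA reads, and Olfr203 had 1, 0, 3 and 11 on 229, 58, 33 and 26. The unclassified pseudogene Olfr192 had 5, 16, 4 and 0 footprints on 365, 45, 21 and 5 RNA reads.

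**Figure D1:**
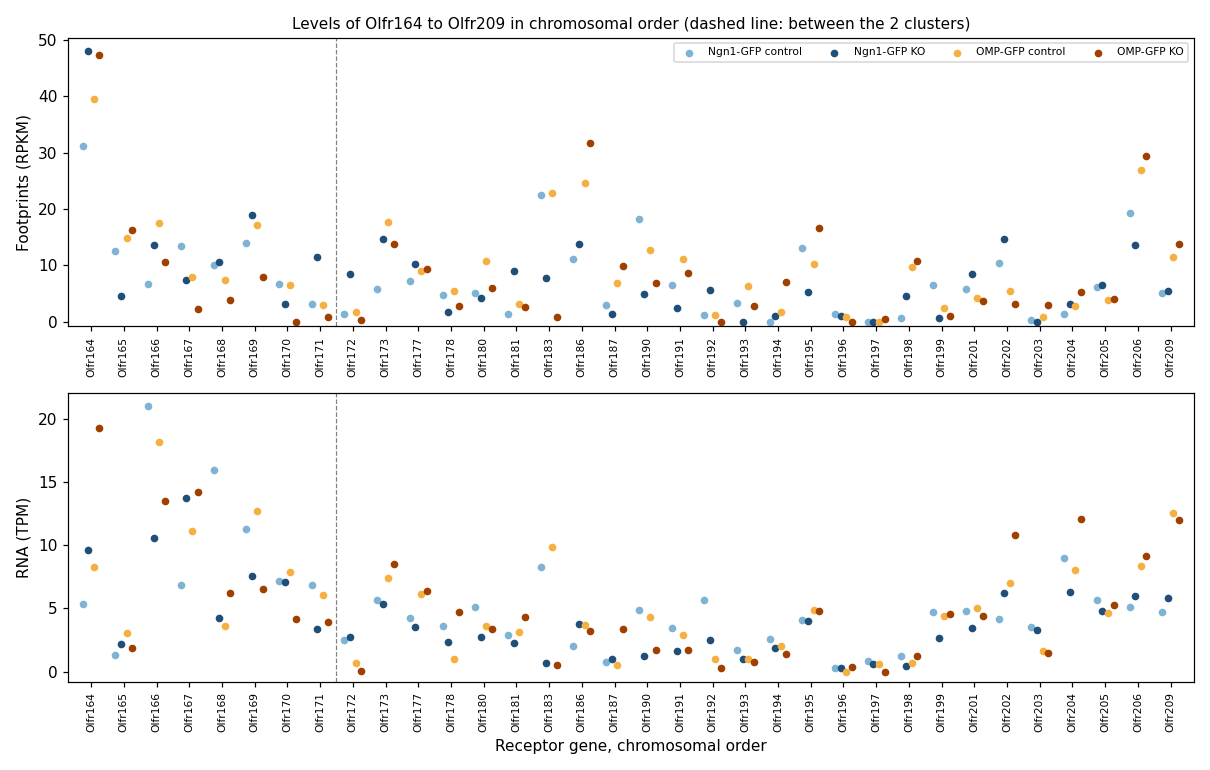
Footprint level (upper panel, RPKM) and RNA level (lower panel, TPM) of the 34 receptors in chromosomal order, as the authors deposited them, with 1 point per group and a dashed line between the 2 clusters. Olfr164 stands highest in footprints in each of the 4 groups, up to 48.0 RPKM, while the highest RNA level is that of Olfr166 in the Ngn1-GFP control, 21.0 TPM.

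The first comparison was between KO and control in Ngn1-GFP cells. A member is called here where the scaled counts differ at least 2-fold, the counting interval excludes equal levels and the pair of columns holds at least 20 counts. In footprints, 6 of 26 measured members were called higher and 6 lower, against 20.3% and 16.4% of 694 other receptors and 6.48% and 10.8% of all genes measured. Counted in either direction, the shares were 46.2% of members, 36.7% of the other receptors and 17.3% of all genes. The share was thus nearer to that of the other receptors than to that of all genes, and the median member difference was 0.14 on the log2 scale, against 0.19 for the other receptors and -0.00 for all genes. The 8 members not measured held under 20 footprints in the pair.

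The higher footprint calls in the Ngn1-GFP KO were Olfr181 (log2 2.74 [1.42, 4.31], 6.67-fold), Olfr172 (2.62 [1.29, 4.20]), the pseudogene Olfr192 (2.30 [0.79, 4.10]), Olfr171 (1.97 [1.00, 3.02]), Olfr173 (1.40 [0.66, 2.18]) and Olfr166 (1.10 [0.36, 1.86]). Of them, 3 belong to MOR184, whose 7 genes were all measured. None of the 6 had a higher RNA call, but neither had any of the 34 members. Olfr166, Olfr171 and Olfr192 had more footprints and less RNA in the KO column, both past the threshold. The lower footprint calls were Olfr199 (-3.13 [-6.25, -1.14], 8.77-fold, on 27 and 2 footprints), Olfr190 (-1.80 [-2.74, -0.96]), Olfr183 (-1.46 [-2.20, -0.77]), Olfr165 (-1.41 [-2.40, -0.51]), Olfr191 (-1.33 [-2.77, -0.09]) and Olfr195 (-1.23 [-2.16, -0.38]). Olfr183, Olfr190 and Olfr191 are MOR183 genes, and their RNA was called lower too.

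In RNA, 0 of 34 members were called higher and 10 lower in the Ngn1-GFP KO. The background was 6.07% higher and 21.8% lower among 1055 other receptors, and 4.4% and 11.9% among all genes, or 27.9% and 16.3% in either direction, against 29.4% of members. The median member difference was -0.64, against -0.17 for the other receptors and 0.01 for all genes, and the summed RNA of members was at -0.63 [-0.69, -0.57] against -0.16 [-0.17, -0.15] for the other receptors. The largest differences were those of Olfr183 (-3.87 [-4.83, -3.05], 14.6-fold), Olfr190 (-2.21 [-2.91, -1.59], 4.63-fold), Olfr168 (-2.14 [-2.50, -1.81], 4.42-fold), Olfr198 (-1.69 [-2.95, -0.65]) and Olfr192 (-1.39 [-1.87, -0.94]). Olfr191, Olfr171, Olfr166, Olfr180 and Olfr199 followed, between -1.33 and -1.08. The Ngn1-GFP control RNA column of this comparison is the one in which the 377 genes stood apart. Footprints summed over the members differed by 0.11 [-0.02, 0.25], against 0.19 [0.16, 0.21] for the other receptors. In members and other receptors alike, the lower summed RNA thus had no lower sum of footprints beside it.

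**Figure D2:**
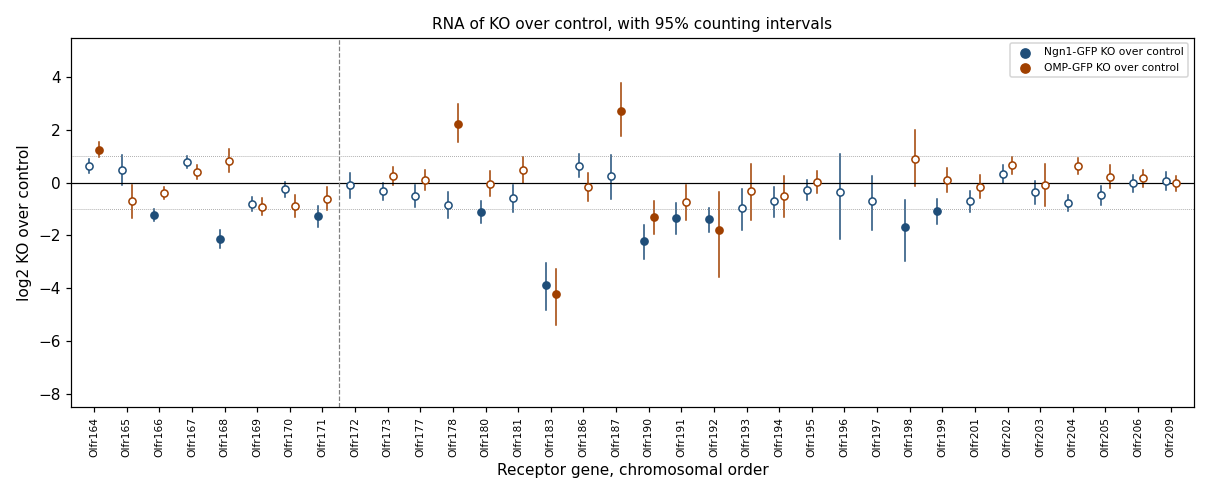
RNA of KO over control (log2) for each receptor in chromosomal order, in Ngn1-GFP and OMP-GFP cells, with 95% counting intervals, filled points for called members and dotted lines at 2-fold. Olfr183 lies lowest in both populations, at -3.87 and -4.24, and Olfr187 highest in the OMP-GFP cells, at 2.71.

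In OMP-GFP cells fewer members differed between KO and control. In footprints, 1 of 27 measured members was called higher and 4 lower, against 15.8% and 15.1% of 689 other receptors and 7.12% and 8.55% of all genes. Both directions together gave 18.5%, 30.9% and 15.7%, with medians of -0.26, 0.07 and 0.00. Olfr183 was lower by far the most, with 76 footprints in the control and 3 in the KO (-4.78 [-7.09, -3.18], 27.5-fold). Olfr170 went from 22 footprints to 0, 7.97-fold lower with the 0 set to 3 counts, with an upper interval end of -2.57. Olfr167 (-1.71 [-2.98, -0.57]) and Olfr169 (-1.02 [-1.70, -0.37]) were the other lower calls, and Olfr194 the higher one (2.05 [0.74, 3.62], 4.14-fold). Of the 4 lower calls, 3 are proximal genes, while the measured proximal genes Olfr164, Olfr165, Olfr166 and Olfr168 were not called.

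In RNA of the OMP-GFP cells 3 of 31 members were called higher and 3 lower, against 9.55% and 9.45% of 984 other receptors and 4.4% and 3.89% of all genes. The shares in both directions were 19.4%, 19% and 8.29%, with medians of -0.03, 0.13 and -0.00. The higher ones were Olfr187 (2.71 [1.77, 3.78], 6.53-fold), Olfr178 (2.23 [1.54, 2.97], 4.68-fold) and Olfr164 (1.26 [0.99, 1.53], 2.39-fold). The lower ones were Olfr183 (-4.24 [-5.39, -3.28], 18.8-fold), the pseudogene Olfr192 (-1.81 [-3.57, -0.36]) and Olfr190 (-1.29 [-1.94, -0.68], 2.45-fold). None of the 3 receptors with a higher RNA call had a higher footprint call: the footprint differences were 0.60 [-0.18, 1.42] for Olfr187, -0.91 [-2.13, 0.24] for Olfr178 and 0.34 [0.01, 0.67] for Olfr164. Summed over members, footprints differed by -0.14 [-0.26, -0.02] and RNA by 0.04 [-0.02, 0.11], against 0.06 and 0.13 for the other receptors. The footprint sum without Olfr183 differed by -0.04 [-0.17, 0.08]. With each of the 34 members left out in turn, the interval covered 0 for 7 of them (Olfr183, Olfr167, Olfr166, Olfr170, Olfr190, Olfr169 and Olfr180), and it did so for all members under the size factors of DESeq2 (-0.12 [-0.24, 0.0045]).

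**Figure D3:**
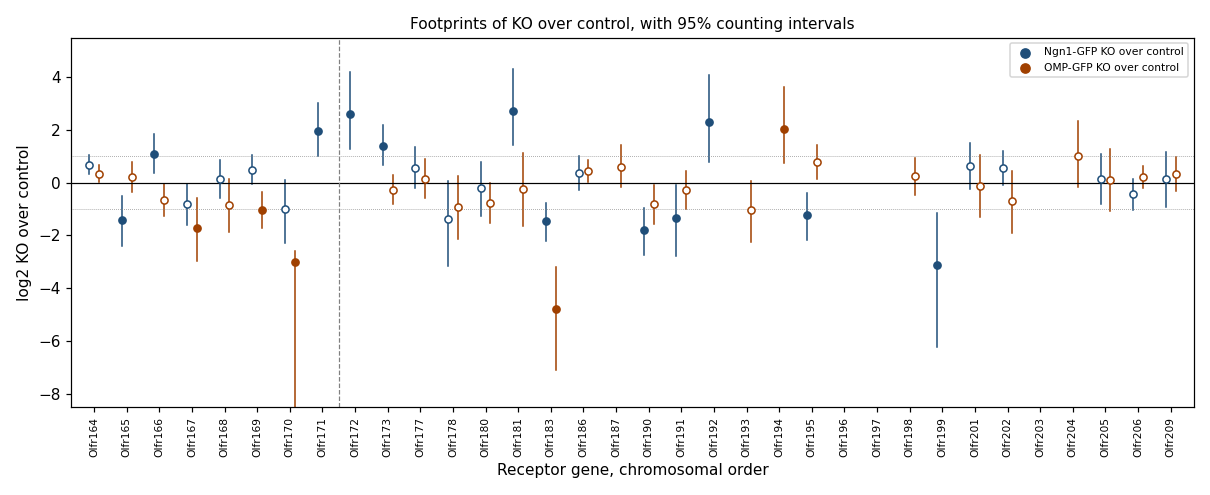
Footprints of KO over control (log2) for members with at least 20 footprints in the pair, in chromosomal order, with 95% counting intervals, filled points for called members and dotted lines at 2-fold. Olfr181 and Olfr172 are highest in the Ngn1-GFP cells, at 2.74 and 2.62, and Olfr183 is lowest in the OMP-GFP cells, at -4.78; the interval of Olfr170, which had 0 footprints in the OMP-GFP KO, has no lower end.

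The KO comparisons of Ngn1-GFP and OMP-GFP cells share no column. Olfr183 was called lower in both, in footprints and in RNA, and Olfr190 and the pseudogene Olfr192 were called lower in RNA in both. That was 1 of 22 members in footprints and 3 of 31 in RNA, against 28 of 600 and 54 of 981 other receptors. No member was called in opposite directions in the 2 populations in footprints or in RNA. Among the other receptors, 17 of 600 and 15 of 981 were. With 0 members called higher in RNA of the Ngn1-GFP KO, opposite RNA calls could arise in 1 way only. Over the members measured in both, the RNA differences had a Pearson correlation of 0.57 (n = 31 genes), which was 0.29 without Olfr183, against 0.41 over the other receptors. For footprints it was 0.33 (n = 22 genes), or 0.20 without Olfr183, against 0.25. These are descriptions across genes, which are not independent replicates, and the weight of Olfr183 in them is large.

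The direction of the KO difference was not the same in all families. MOR183 had 273, 89, 284 and 234 footprints and 1445, 182, 472 and 207 RNA reads in sum, with KO over control at -0.99 [-1.36, -0.64] and -0.40 [-0.66, -0.14] for footprints, and -1.36 [-1.59, -1.14] and -0.93 [-1.17, -0.69] for RNA, in Ngn1-GFP and OMP-GFP cells. Without Olfr183 the Ngn1-GFP values were -0.80 [-1.23, -0.39] and -0.78 [-1.03, -0.54], and the OMP-GFP values were 0.03 [-0.25, 0.31] and -0.18 [-0.45, 0.09]. In OMP-GFP cells the sum of the other 7 genes thus had an interval that covered 0. In Ngn1-GFP cells their sum was lower, and Olfr190 went from 75 footprints to 14 and from 315 RNA reads to 22. Its other genes did not all go that way: Olfr186 was at 0.38 [-0.27, 1.03] in footprints and 0.65 [0.20, 1.09] in RNA, and Olfr187 at 0.24 [-0.63, 1.06] in RNA. MOR273 had 100, 96, 90 and 34 footprints, a difference of -1.52 [-2.14, -0.94] in OMP-GFP cells and 0.56 [0.14, 0.98] in Ngn1-GFP cells. Its RNA was lower in both KO columns, at -0.73 [-0.90, -0.56] in Ngn1-GFP cells and -0.83 [-1.04, -0.61] in OMP-GFP cells. Within the family, footprints in Ngn1-GFP cells went from 13 to 33 for Olfr171, from 28 to 9 for Olfr170 and from 59 to 54 for Olfr169. MOR279 was higher in the KO in RNA, at 0.60 [0.36, 0.84] and 0.94 [0.70, 1.18], with 0.33 [0.01, 0.65] and 0.30 [0.02, 0.59] in footprints. Olfr164 holds most of the counts of this pair of genes, and Olfr165 was called lower in footprints of the Ngn1-GFP KO (-1.41 [-2.40, -0.51]) and was at -0.70 [-1.35, -0.07] in RNA of the OMP-GFP KO. MOR184 had 166, 156, 203 and 203 footprints, with 0.53 [0.21, 0.86] in the Ngn1-GFP cells and -0.12 [-0.41, 0.17] in the OMP-GFP cells. Its RNA went the other way, at -0.53 [-0.69, -0.38] in the Ngn1-GFP cells and 0.30 [0.13, 0.47] in the OMP-GFP cells. MOR182, the largest of the families here, differed by 0.13 [-0.17, 0.43] and 0.30 [0.05, 0.55] in footprints. In RNA it was at -0.40 [-0.52, -0.28] in the Ngn1-GFP cells and 0.24 [0.12, 0.36] in the OMP-GFP cells. Beside these families, the summed footprints of the other receptors were at 0.19 [0.16, 0.21] and 0.06 [0.04, 0.09]. Their RNA was at -0.16 [-0.17, -0.15] and 0.13 [0.12, 0.14].

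**Figure D4:**
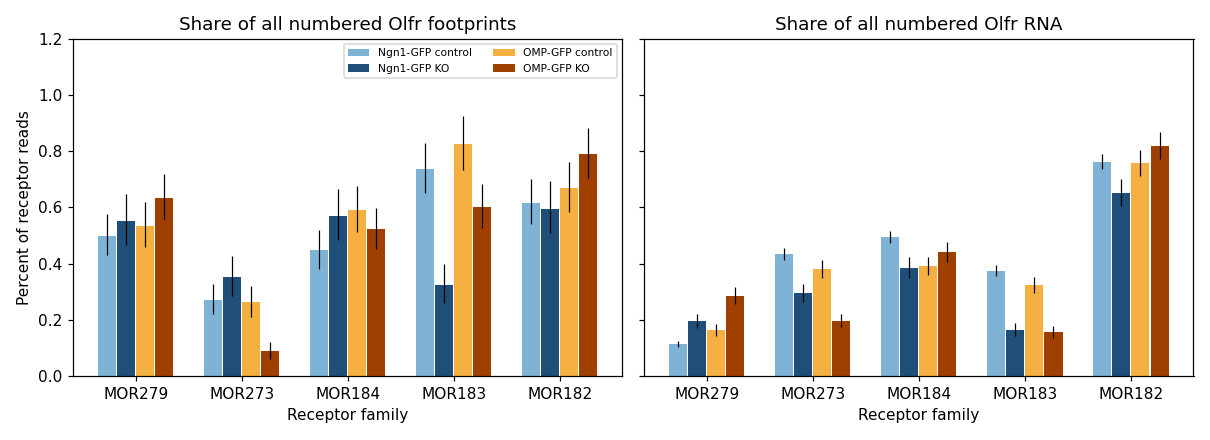
Share of all numbered Olfr footprints (left) and RNA (right) held by the members of 5 receptor families, in percent with 95% Clopper-Pearson intervals, for the 4 groups. The MOR183 share of receptor RNA is lower in the KO in both populations (0.374% and 0.164% in Ngn1-GFP, 0.322% and 0.155% in OMP-GFP), and the MOR273 share of footprints is lowest in the OMP-GFP KO, at 0.0873%.

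Summed by cluster, footprints of the proximal cluster differed by 0.34 [0.12, 0.55] in the Ngn1-GFP KO and by -0.27 [-0.49, -0.06] in the OMP-GFP KO. Those of the distal cluster differed by -0.04 [-0.22, 0.13] and -0.07 [-0.22, 0.07]. Footprints of the other receptors were at 0.19 [0.16, 0.21] and 0.06 [0.04, 0.09], and the proximal interval of the Ngn1-GFP KO held their value. RNA of both clusters was lower in the Ngn1-GFP KO, at -0.61 [-0.71, -0.51] and -0.65 [-0.73, -0.56], and differed by 0.02 [-0.09, 0.13] and 0.06 [-0.03, 0.15] in the OMP-GFP KO. That of the other receptors was at -0.16 [-0.17, -0.15] in the Ngn1-GFP KO and 0.13 [0.12, 0.14] in the OMP-GFP KO.

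Between the populations, OMP-GFP cells had more member footprints than Ngn1-GFP cells. These comparisons use the same columns as the KO comparisons and are no independent evidence beside them. In controls the summed footprints were at 0.56 [0.44, 0.68], against 0.42 [0.40, 0.44] for the other receptors, and in KO at 0.31 [0.17, 0.44], against 0.30 [0.27, 0.32]. By library size alone, with no TMM factors, the values for members were 0.35 [0.22, 0.47] and 0.082 [-0.052, 0.22]. In control cells 8 of 26 members were called higher in OMP-GFP and 1 lower in footprints, against 23.4% and 8.25% of 739 other receptors and 6.11% and 17.4% of all genes. Together these were 34.6%, 31.7% and 23.5%. The largest were Olfr198 (3.95 [2.27, 6.30], on 3 and 32 footprints), Olfr173 (1.82 [1.13, 2.55]), Olfr166 (1.61 [0.94, 2.31]), Olfr187 (1.47 [0.40, 2.61]) and Olfr209 (1.39 [0.58, 2.23]), and Olfr199 was the lower one (-1.22 [-2.57, -0.04]).

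In KO cells 9 of 26 members were called higher in OMP-GFP and 8 lower in footprints, against 28.2% and 16.1% of 677 other receptors and 11.3% and 18.4% of all genes. Taking both directions gave 65.4%, 44.3% and 29.6%. The higher ones were led by Olfr187 (3.04 [1.56, 4.99]), Olfr194 (2.96 [1.26, 5.32]), Olfr165 (2.07 [1.19, 3.05]), Olfr191 (2.03 [0.83, 3.45]) and Olfr195 (1.86 [1.03, 2.78]). The lower ones were led by Olfr172 (-4.80 [-10.16, -2.18], on 24 and 1 footprints), Olfr171 (-3.67 [-6.02, -2.0]), Olfr183 (-3.08 [-5.47, -1.35]), Olfr202 (-1.98 [-3.05, -1.03]) and Olfr181 (-1.59 [-2.81, -0.49]). The 4 genes Olfr186, Olfr187, Olfr198 and Olfr209 were called higher in OMP-GFP in both genotypes. The same count over the other receptors was not made, so these 4 genes are a description only. Among the 8 lower calls, Olfr167, Olfr168, Olfr169 and Olfr171 are proximal genes. The proximal Olfr165 was called higher, and Olfr164 and Olfr166 were not called.

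In RNA, 2 of 34 members were called higher in OMP-GFP and 6 lower in controls, against 11.1% and 15.9% of the other receptors and 3.43% and 24.1% of all genes. Both directions came to 23.5%, 27.1% and 27.5%. Olfr209 (1.29 [1.04, 1.53]) and Olfr165 (1.07 [0.58, 1.55]) were higher, and Olfr192 (-2.59 [-3.30, -1.95]), Olfr168 (-2.28 [-2.64, -1.94]), Olfr172 (-2.01 [-2.91, -1.22]), Olfr178 (-1.93 [-2.63, -1.30]) and Olfr203 (-1.26 [-1.84, -0.73]) were lower. Olfr196 went from 20 reads to 0, 2.31-fold lower with the 0 set to 3 counts. In KO cells 8 of 32 were called higher and 2 lower, against 20% and 6.58% of the other receptors and 4.77% and 16.4% of all genes, or 31.2%, 26.6% and 21.2% in either direction. Olfr172, with 49 reads in Ngn1-GFP and 1 in OMP-GFP (-5.45 [-10.79, -2.91]), and Olfr192 (-3.01 [-4.70, -1.68]) were lower there, and Olfr187 (1.90 [1.12, 2.75]), Olfr198 (1.62 [0.40, 3.0]), Olfr209 (1.19 [0.84, 1.54]), Olfr164 (1.15 [0.88, 1.42]) and Olfr178 (1.13 [0.59, 1.69]) were the highest of the higher ones. Olfr209 was thus higher in OMP-GFP in footprints and in RNA, in both genotypes.

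Footprints per RNA read, the footprint CPM over the RNA CPM of the same group, relates translation to message and cancels coding length. Over members with at least 10 RNA reads its median was 1.56, 2.60, 2.10 and 2.09. Over the other receptors it was 1.56, 1.68, 1.78 and 1.41, and over all genes 0.991, 0.876, 0.843 and 0.738. The members' median was that of the other receptors in the Ngn1-GFP control and above it in the other 3 columns. In those 3 columns the 95% intervals of the members' median, from the ranked member values, were 1.33 to 3.61, 1.30 to 4.25 and 0.88 to 4.53. Each held the median of the other receptors. In the OMP-GFP KO the higher median of members rested on the minimum of reads: with at least 50 RNA reads it was 1.15 over 22 members, below the 1.41 of 715 other receptors. The value was at least 1 for 23 of 34, 24 of 32, 28 of 33 and 20 of 29 members.

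Among the 18 members with at least 50 RNA reads in each group, ordered by the median of the 4 groups, Olfr186 had the most footprints per RNA read, 6.98, 5.34, 9.61 and 13.9. Olfr164 followed with 7.49, 7.19, 6.86 and 3.47, above Olfr186 in both Ngn1-GFP columns, then Olfr206 with 4.77, 3.29, 4.64 and 4.53, Olfr195 with 4.07, 1.94, 3.03 and 4.87, and Olfr173 with 1.30, 3.94, 3.44 and 2.30. Olfr206 kept the value nearly level, at 1.45-fold from lowest to highest column, and Olfr209, lower in the order, more so, at 1.23-fold. At the other end were Olfr204 with 0.208, 0.743, 0.492 and 0.620, Olfr171 with 0.575, 4.96, 0.701 and 0.282, Olfr167 with 2.49, 0.776, 1.04 and 0.232, Olfr170 with 1.18, 0.639, 1.19 and 0, and Olfr166 with 0.406, 1.87, 1.39 and 1.11. Of these 5 low genes, 4 lie in the proximal cluster, which also holds Olfr164, Olfr168 and Olfr169 further up the order. Olfr204 was below 1 in each column, whereas Olfr171 ranged 17.6-fold and was high in the Ngn1-GFP KO only.

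**Figure D5:**
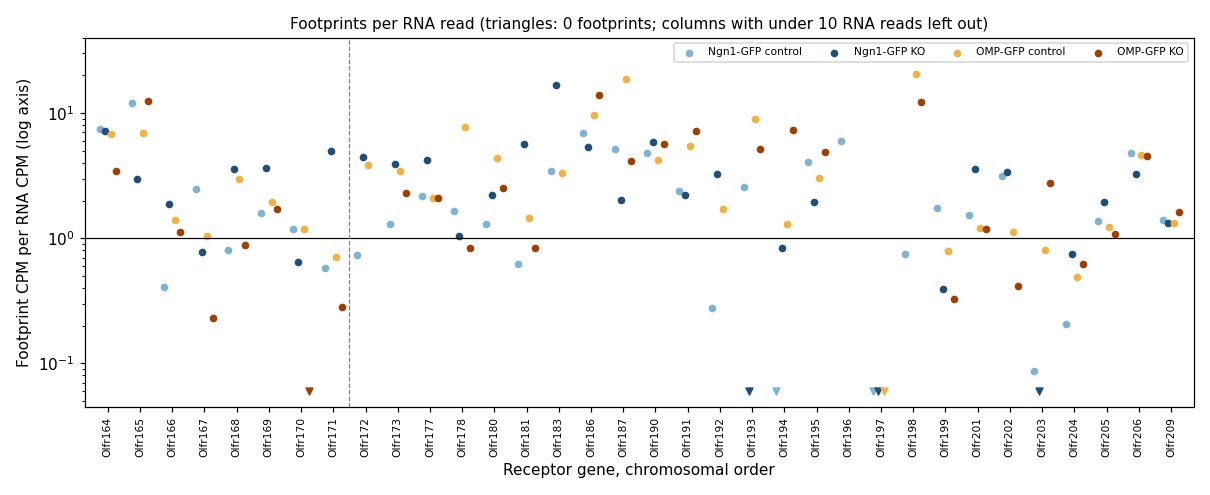
Footprints per RNA read of each receptor in chromosomal order (log axis; footprint CPM over RNA CPM), 1 point per group, with triangles at the bottom for 0 footprints and groups under 10 RNA reads left out. Olfr186, between 5.34 and 13.9, stays high in the 4 groups, and Olfr204, between 0.208 and 0.743, stays low.

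The order of members by footprints per RNA read was most alike between the OMP-GFP columns, with a Spearman correlation of 0.88 over 20 members, and between 0.45 and 0.61 for the other pairs of columns (18 to 24 members). Over the other receptors the same values were 0.73 and 0.55 to 0.64. Within a column, footprint and RNA counts of the 34 members had Spearman correlations of 0.44, 0.63, 0.56 and 0.45, against 0.57, 0.64, 0.67 and 0.65 over the other receptors. These are descriptions across genes that share a library and its depth.

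Compared between KO and control in Ngn1-GFP cells, footprints per RNA read were called higher for 11 of 26 members and lower for 2, against 25.2% and 12.5% of the other receptors and 8.03% and 10.2% of all genes. In either direction that was 50%, 37.8% and 18.2%. The largest were Olfr192 (3.69 [2.17, 5.21]), Olfr181 (3.32 [1.95, 4.68]), Olfr171 (3.23 [2.23, 4.23]), Olfr172 (2.73 [1.36, 4.10]) and Olfr183 (2.41 [1.34, 3.47]), and the lower ones were Olfr165 (-1.90 [-2.92, -0.87]) and Olfr167 (-1.56 [-2.32, -0.81]). Intervals of this ratio are approximate. The value of Olfr183 rests on 12 RNA reads in the KO. In OMP-GFP cells 1 of 27 was called higher and 6 lower, against 13.5% and 16.2% of the other receptors and 7.12% and 9.08% of all genes, or 25.9%, 29.7% and 16.2% in either direction. Olfr194 was higher (2.56 [1.09, 4.03]), and Olfr178 (-3.13 [-4.40, -1.87]), Olfr167 (-2.11 [-3.23, -0.99]), Olfr187 (-2.10 [-3.29, -0.91]), Olfr168 (-1.70 [-2.71, -0.68]) and Olfr202 (-1.37 [-2.47, -0.28]) were lower. Olfr170 was lower too (-2.12 [-3.90, -0.33], 4.34-fold with its 0 footprints set to 3 counts). Olfr167 was the only one of 22 members called in the same direction in both populations, lower. Of 600 other receptors, 12 were lower in both and 19 higher in both. Olfr168 was called in opposite directions, as were 31 of the 600.

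Between populations, footprints per RNA read were called higher in OMP-GFP for 9 of 26 members and lower for 2 in controls, against 21.5% and 12% of the other receptors and 5.98% and 8.56% of all genes. In either direction that was 42.3%, 33.6% and 14.5%. Olfr198 (4.93 [3.04, 6.82]) and Olfr178 (2.39 [1.29, 3.49]) were the highest and Olfr202 (-1.33 [-2.17, -0.48]) the lowest. In KO cells 5 of 26 were called higher and 7 lower, against 17.5% and 24.2% of the other receptors and 9.78% and 13.2% of all genes, or 46.2%, 41.7% and 22.9% in either direction. They ran from Olfr194 (3.26 [1.38, 5.14]) to Olfr171 (-4.03 [-5.81, -2.25]). Olfr167 and Olfr202 were called lower in OMP-GFP, and Olfr191 higher, in both genotypes. Calls shared by both genotypes were not counted over the other receptors.

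Markers of other cells moved with the KO in ways that differ between the populations. The summed level of 7 sustentacular cell markers was 5131, 582, 137 and 464 CPM in footprints, and in the Ngn1-GFP KO 7 of 7 were called lower in footprints with a median of -2.84. In the OMP-GFP KO 4 of 6 measured were called higher (median 1.94), and of 7 gland markers 6 were higher (median 3.36), with summed levels of 366, 634, 58.4 and 489. No sustentacular marker was at 0 in any footprint column, and 1 gland marker was at 0 in that of the Ngn1-GFP KO. The part of these cells in the receptor results was not tested. The 8 mature neuron markers, in contrast, had 0 calls in either KO comparison, with footprint medians of 0.19 and 0.29 and summed levels of 35753, 39507, 54083 and 60655 CPM.

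Few genes known to act on receptors were called. None of 11 genes of receptor choice, among them the transcription factors Lhx2 and Ebf1, the cofactor Ldb1 and the demethylase Kdm1a, was called in footprints or RNA in either population, with footprint medians of 0.10 and 0.02. The same held for 4 genes of the feedback that follows choice, among them Atf5 (0.64 [0.59, 0.69] and 0.56 [0.49, 0.62] in footprints) and Adcy3, and for 8 genes of odorant transduction such as Gnal and Cnga2. Of all genes measured, 17.3% and 15.7% were called in footprints, and 16.3% and 8.29% in RNA. Below the 2-fold threshold, Cbx5 of the choice list was at 0.82 [0.25, 1.42] in footprints and -0.84 [-1.04, -0.64] in RNA of the OMP-GFP KO. The feedback list reached -0.81 in footprints of the Ngn1-GFP KO. Of 6 genes of receptor transport and folding, 1 was called, Reep6, with 133, 25, 71 and 23 footprints, lower at -1.79 [-2.47, -1.16] and -1.75 [-2.49, -1.05], and its RNA at 0.47 and 0.33. Rtp1 and Rtp2, which carry receptors to the cell surface, were at -0.11 and 0.20 in footprints of the Ngn1-GFP KO. Their footprints were at -0.44 and -0.06 in the OMP-GFP KO.

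Of the receptors numbered just outside the range, Olfr161, also on chromosome 16, had 8, 37, 14 and 21 footprints, and Olfr160, on chromosome 9, had 4, 14, 9 and 61. Above the range, Olfr211 and Olfr212 are on chromosome 6, with 2, 21, 9 and 10 and with 24, 7, 18 and 13 footprints.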

How the data were processed

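Footprints and input RNA were measured in sorted cells of 4 groups, and 8 footprint libraries, 2 per group, were mapped to groups by title. FastQC, cutadapt, STAR and mm10 are named, with no versions, per the submitters' processing notes; the counting tool, and the way 2 libraries became 1 column, are not given in the sources used here. Per the file headers, the authors deposited counts over coding sequences, coding length in bases (other), footprint RPKM, RNA TPM and translational efficiency, a ratio equal to the footprints per RNA read times 1.33 to 1.38 in the 4 groups. The deposited counts, RPKM and TPM were used as given. The genotype tag of the OMP-GFP KO reads OMP-ires-Cre; the group was taken from the description, OMP-ires-GFP.

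Counts were scaled by TMM over genes kept by filterByExpr (minimum count 10, minimum total 15; edgeR 4.0.16, R 4.3.3). Ratios and exact conditional binomial 95% intervals, approximate for footprints per RNA read, came from Python 3.11.15 (scipy 1.17.1, pandas 2.3.3, numpy 2.4.6), and figures from matplotlib 3.10.9. The scripts were tested on simulated data. A call needs a 2-fold difference, an interval off 1 and 20 counts in the pair. For a count of 0 the ratio uses 3 counts, so its fold change rests on that substitution and is not a lower bound. Footprints per RNA read needed 10 RNA reads. Expected detection at the smallest total was computed, not drawn.

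Named genes are members with at least 20 footprints in a group, up to 5 calls per direction, the 5 highest and 5 lowest by footprints per RNA read, the 2 receptors outside each end, Mex3a and list genes; further calls and the 4 members below 20 footprints were named after their values were seen. The members and lists were chosen with earlier results of these data known. Lists: 7 of cell type markers and 4 of receptor choice, transport and folding, feedback and transduction. Of the lists not described in the report, immature neuron markers had 0 footprint calls in the Ngn1-GFP KO and 1 lower of 6 in the OMP-GFP KO; precursor markers had 1 higher of 4 and 0 of 3; horizontal basal markers had 0 of 3 and none measured; immune and blood markers had 1 higher and 1 lower of 3 and 1 higher of 2. Sequences and gene positions are RefSeq's for GRCm38.p6, in which 34 of 34 members were found. As alternatives, scaling by library size and by the size factors of DESeq2 1.42.0 was run, and TMM without Olfr genes, other minimum counts and leaving out Olfr183. The Cre driver is not reported here by name.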

Additional observations from a re-analysis of the deposited data

Results flagged for a closer look

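For a few members the difference had opposite signs in a pair of comparisons; in each case the difference between the differences was not tested. Footprints per RNA read of Olfr168 were higher in the Ngn1-GFP KO than in its control (log2 2.28) and lower in the OMP-GFP KO than in its control (-1.70). Set between the populations, OMP-GFP over Ngn1-GFP, the same gene was higher in controls (2.06) and lower in KO (-1.91), which restates the same 4 columns. Olfr168 had 1052 RNA reads in the Ngn1-GFP control, the RNA column in which 377 genes stood apart, and the part of that column was not tested. RNA of Olfr178, OMP-GFP over Ngn1-GFP, was lower in controls (-1.93) and higher in KO (1.13), on 243, 44, 22 and 86 reads in the order used above.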

How the results depend on the processing

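Of 157 values under alternatives, 147 stayed within the interval of the reported value or 1.5 times the count, and 10 did not. Of the 105 differences among them 2 changed sign, both of them medians over members. The tally is no measure of stability. Intervals of the medians are wide, and both sign changes count as within them. Summed footprints of the OMP-GFP KO without Olfr183 count as within too, though their interval then covered 0. Many of the 157 values came from leaving out members in turn for that same sum. The median footprint difference of the OMP-GFP KO went from -0.26 to 0.17 with at least 50 footprints in the pair, and that of OMP-GFP over Ngn1-GFP in KO from 0.17 to -0.05 by library size alone. The leaving out of each member in turn, for summed footprints of the OMP-GFP KO, and the minimum of 50 RNA reads in the other receptors were chosen after seeing the data. With at least 50 footprints in the pair, calls fell to 6 of 14 members measured (Ngn1-GFP KO), 2 of 16 (OMP-GFP KO), 5 of 18 (populations, controls) and 8 of 12 (populations, KO), since fewer members were measured. Library size alone put summed footprints of OMP-GFP over Ngn1-GFP at 0.35 in controls and 0.082 in KO, and summed RNA at 0.41 in KO; it moved the median of all genes by -0.21, -0.23 and -0.12 in these comparisons. It also added Olfr193 to the lower footprint calls of the OMP-GFP KO, removed it from the population calls of controls, added Olfr198 (RNA, controls) and Olfr201 (footprints, KO), and changed the RNA calls of Olfr177, Olfr181, Olfr203 and Olfr204 between KO populations. Size factors of DESeq2, TMM without Olfr genes and TMM without the genes that stood apart, the last chosen after seeing the data, changed no footprint or RNA call of a member. Calls in footprints per RNA read were not rerun under other scalings. Without Olfr183, summed RNA of the OMP-GFP KO was at 0.12, and the share of receptor footprints was 2.67% in the Ngn1-GFP control and 2.99% in the OMP-GFP control. No paired analysis was possible because the table has 1 column per group, so neither a replicate block nor leaving out a replicate could be run. Depth limits members under 20 footprints, whose ratios are not given as calls.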
